A study of Mus musculus and Rattus norvegicus with 32 samples.

Results

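The genes described here supply, move and buffer high-energy phosphate and oxygen in muscle. They are the creatine kinases Ckm, Ckb, Ckmt1 and Ckmt2, the creatine transporter Slc6a8, the creatine synthesis enzyme Gamt, the adenylate kinases Ak1 and Ak3, and myoglobin (Mb). These 9 genes were found in the tables by their symbols, a rule that uses no measured value. Each of the 3 mouse heart tables listed all 9 among 55487 genes, and the rat table listed 8 of them among 32883 genes. No row of the rat table carried the symbol Ak1, so rat Ak1 was not analysed here. The filter on low counts left 8 of the 9 to be tested in the mouse hearts, since Ckmt1 was too low, and all 8 of those listed in the rat.

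RNA was sequenced in 4 pairs of groups with 4 libraries per group, 32 libraries in all. The first pair were C57BL/6 mouse hearts at 1 month of age, labelled METTL5-KO (a whole-body knockout of the rRNA methyltransferase METTL5) or control. The next pair were C57BL/6 hearts at 3 months of age, from control mice or from METTL5-cKO mice, in which Cre driven by the Myh6 promoter removes floxed exons 2 to 4 of Mettl5 from cardiomyocytes and leaves the gene intact in the other cells of the heart. The third pair carried the same genotypes, with the age label of 3 months, and were collected 4 weeks after transverse aortic constriction (TAC), a surgical pressure overload that all mice of that pair had received. Controls were littermates, and their own Cre and floxed alleles are not given in the sources used here. The last pair were neonatal rat ventricular cardiomyocytes (NRVMs) from Sprague Dawley rats at postnatal day 2, infected with adenovirus for human METTL5 (AdMETTL5) or for GFP as the control (AdGFP), and all treated with 20 μM phenylephrine (PE), an adrenergic agonist that drives hypertrophy, for 24 h. The NRVMs were plated after a step that removes fibroblasts by adhesion. Levels are given as normalised counts (CPM, on TMM-scaled library sizes), and the libraries of a group are numbered 1 to 4.

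Creatine kinase moves phosphate between ATP and creatine, so that phosphocreatine can refill ATP at the contractile filaments and ion pumps. In the working heart the cytosolic enzyme is built mainly of muscle-type subunits from Ckm, with brain-type subunits from Ckb more prominent in the fetal and the stressed heart, while Ckmt2 makes the sarcomeric enzyme between the mitochondrial membranes and Ckmt1 the ubiquitous mitochondrial form. Creatine is made from guanidinoacetate by Gamt, mostly outside the heart, and is brought into cardiomyocytes by the Slc6a8 transporter. Adenylate kinases pass phosphate between adenine nucleotides, Ak1 in the cytosol and Ak3, which uses GTP, in the mitochondrial matrix, and myoglobin binds oxygen in the cytoplasm of muscle cells.

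Both cytosolic creatine kinase genes are shown by the sequence around their start sites because they are the pair whose balance is followed through all groups. The sequences are RefSeq promoters on GRCm38.p6, from 250 bases before to 50 bases after the start site, written on the strand of the gene. The window of Ckm is chr7:19410844-19411143 (plus strand) and that of Ckb is chr12:111672289-111672588 (minus strand). Capitals mark matches to 4 motifs, searched on either strand. The first was the TATA box, spelled TATAAA. The next were the CCAAT box, which is spelled as it is named, and the E-box, spelled CANNTG. The last was a form of the site of MEF2 factors, spelled CTANNNNTAG.
Ckm: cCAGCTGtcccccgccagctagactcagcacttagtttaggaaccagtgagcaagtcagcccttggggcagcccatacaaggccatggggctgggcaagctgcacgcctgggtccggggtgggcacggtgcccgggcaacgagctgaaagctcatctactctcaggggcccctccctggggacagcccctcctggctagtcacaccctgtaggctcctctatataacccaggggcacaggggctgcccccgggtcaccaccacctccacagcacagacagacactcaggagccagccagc
Ckb: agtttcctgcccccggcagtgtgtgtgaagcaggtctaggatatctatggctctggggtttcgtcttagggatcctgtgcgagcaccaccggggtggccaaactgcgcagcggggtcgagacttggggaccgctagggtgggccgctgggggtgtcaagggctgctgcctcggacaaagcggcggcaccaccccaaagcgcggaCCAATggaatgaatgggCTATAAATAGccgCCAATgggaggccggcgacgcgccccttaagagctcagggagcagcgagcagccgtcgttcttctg
The Ckb window held the TATA box at base -28, inside a match to the MEF2 form at base -29, and the CCAAT box at bases -46 and -16. The Ckm window held 1 E-box, at base -249, and no match to the other 3 motifs. Of 32851 mouse promoters of that length, 13.6% held the TATA box, 37.4% the CCAAT box, 72.3% the E-box and 3.69% the MEF2 form. The promoter table had an entry for 8 of the 9 genes, and Slc6a8 had none.

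The genes lie on 8 chromosomes of GRCm38 (GENCODE M21), with Ckmt1 and Ak1 both on chromosome 2. Ckm (ENSMUSG00000030399) spans chr7:19404776-19422841, Ckb (ENSMUSG00000001270) chr12:111669361-111672338, Slc6a8 (ENSMUSG00000019558) chrX:73673150-73682502 and Mb (ENSMUSG00000018893) chr15:77015487-77050670. Ckb, Slc6a8, Gamt and Ak1 overlapped no other gene, whereas Ckm, Ckmt1, Ckmt2, Ak3 and Mb each overlapped at least 1 gene on the other strand. Whether the counting used strand is not given in the sources used here, so reads of those 5 genes and of their antisense neighbours cannot be told apart. Of the 50-base words in the transcripts of Mb, 24.9% also occurred in another gene, mostly Gm49540, and for Ckm the share was 10.8%, all in A930016O22Rik. For Ckb 9.98% of the words occurred elsewhere, nearly all in the processed pseudogene Gm12892, which had 39 to 60 counts in the control and 67 to 103 in the METTL5-cKO hearts after TAC, beside 455 to 515 and 694 to 1008 counts of Ckb. No word was shared between the 9 genes.

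Total counts ran from 19899033 to 21804907 in the hearts, and from 17344430 to 18085339 in the AdGFP and 14324700 to 14642431 in the AdMETTL5 libraries. The whole-gene level of Mettl5 did not separate the genotypes in any heart table, with adjusted p of 0.973 at 1 month, 0.884 at 3 months and 0.874 after TAC (edgeR), and since that count does not isolate the deleted exons it is no check of the labels, on which the genotypes rest. In NRVMs, where the virus carries the human coding sequence, the count of rat Mettl5 does not measure the transgene or the size of the overexpression, and it was 16.2 to 18.0 CPM with AdGFP and 19.1 to 23.0 CPM with AdMETTL5 (adjusted p = 0.00295). Markers of 7 cell types were read in every library, and at 1 and 3 months none of their genes passed the test. The heart libraries held 21627 to 49228 CPM in 10 cardiomyocyte markers, and the skeletal muscle myosins Myh1 and Myh4 were at 0 in all of them.

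Per kilobase of exon, the energy buffer genes kept 1 order of mean levels in all 6 groups of hearts: Mb, Ckmt2, Ckm, Ak1, Ak3, Slc6a8, Ckb, Gamt and Ckmt1. In control hearts at 3 months Mb, the oxygen store, stood at 5546 ± 302 CPM per kilobase (SD, n = 4). The mitochondrial Ckmt2 stood at 954 ± 76.6 CPM per kilobase and the cytosolic Ckm at 448 ± 25.3. Ckb, the other cytosolic subunit, was at 5.85 ± 0.639 CPM per kilobase, below Ak1 (108 ± 6.49), Ak3 (24.5 ± 3.55) and Slc6a8 (18.9 ± 3.71). Gamt was at 2.12 ± 0.512 CPM per kilobase. Ckmt2 and Ckm overlapped between libraries in the control hearts at 1 month, and Ak3 and Slc6a8 overlapped in every group but the control hearts after TAC. With the longest transcript as the length, Slc6a8 came before Ak3 in 4 of the 6 groups. The remaining neighbours in the order did not overlap in any group.

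Ckmt1 was close to absent from the mouse hearts. It had 0 counts in all 4 libraries labelled METTL5-KO at 1 month and in all 4 METTL5-cKO libraries at 3 months. The control libraries had 2, 0, 2 and 12 counts at 1 month, and 11, 0, 0 and 0 at 3 months. After TAC it had 6, 0, 4 and 0 counts in control and 4, 13, 0 and 0 in METTL5-cKO hearts, so no difference between genotypes was detectable at this depth. DESeq2, run without the filter on low counts, gave Ckmt1 an unadjusted p of 0.0271 at 1 month, which did not pass the adjustment, and it was the only 1 of the 9 under 0.05 there.

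After TAC, the comparison of the genotypes among hearts that had all undergone pressure overload, Ckb and Slc6a8 were higher and Mb was lower in METTL5-cKO hearts. Ckm, Ckmt2, Gamt, Ak1 and Ak3 did not pass the test. Of the 8 genes tested 3 passed (adjusted p under 0.05, quasi-likelihood test of edgeR, Benjamini-Hochberg over 16340 genes), beside 12.7% of all genes tested. Their median log2 fold change was -0.23, and that of all genes was -0.00. The 2 higher genes stand beside 6.57% of all genes higher and the 1 lower gene beside 6.10% lower. Scaled by library size alone, 2060 of 2584 called genes were higher in METTL5-cKO hearts, against 1074 of 2071 with TMM, and the same number of energy buffer genes passed in each direction. DESeq2 called 4 of them, with Ak1 added at a log2 fold change of -0.20, beside 2721 of all 30075 genes. No log2 fold change of the energy buffer genes exceeded 1 in size, a limit that 2.90% of all genes passed together with the adjusted p (edgeR).

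Ckb, the brain-type subunit, had 25.5, 22.7, 23.7 and 22.8 CPM in the control hearts after TAC and 44.2, 34.9, 28.4 and 34.6 CPM in the METTL5-cKO hearts. Every METTL5-cKO library stood above every control library. The group means were 23.7 ± 1.34 and 35.5 ± 6.52 CPM (SD, n = 4), and the log2 fold change was 0.59 (SE 0.125, adjusted p = 0.0199, edgeR). The call was lost without METTL5-cKO library 2 (adjusted p = 0.0571), control library 2 (0.0579) or control library 4 (0.0655), with log2 fold changes of 0.57 to 0.60.

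Ckm, the muscle-type subunit, had 1514, 1615, 1595 and 1719 CPM in control hearts and 1104, 1131, 1010 and 1784 CPM in METTL5-cKO hearts. METTL5-cKO libraries 1 to 3 were below every control library, whereas library 4 was above all of them. The log2 fold change was -0.36 (SE 0.169, adjusted p = 0.184, edgeR). Without METTL5-cKO library 4 it was -0.57 (SE 0.0735, adjusted p = 0.00124), so 1 library decided the call. In the mitochondria, Ckmt2 had 1239 to 1735 CPM in control and 1110 to 1445 CPM in METTL5-cKO hearts, with a log2 fold change of -0.24 (SE 0.123, adjusted p = 0.209) and groups that overlapped.

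The creatine transporter Slc6a8 had 92.6, 86.4, 85.6 and 83.8 CPM in control and 128, 122, 126 and 112 CPM in METTL5-cKO hearts after TAC. All METTL5-cKO libraries were above all controls, and the spread within each group was small. The log2 fold change was 0.49 (SE 0.0710, adjusted p = 0.00761, edgeR), and it passed the test whichever library was left out, with an adjusted p of at most 0.0366. Gamt, which methylates guanidinoacetate to creatine, had 4.76, 4.52, 5.93 and 5.29 CPM in control and 2.37, 2.96, 3.64 and 5.39 CPM in METTL5-cKO hearts. METTL5-cKO library 4 lay within the control range and the other 3 lay below it. Its log2 fold change was -0.52 (SE 0.228, adjusted p = 0.156), and without that library it was -0.77 (SE 0.170, adjusted p = 0.0134).

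The cytosolic adenylate kinase Ak1 had 288, 268, 271 and 283 CPM in control and 220, 224, 244 and 265 CPM in METTL5-cKO hearts. The groups did not overlap, but the log2 fold change of -0.22 did not pass the test (SE 0.0800, adjusted p = 0.0963, edgeR). It passed without METTL5-cKO library 4 (-0.27, adjusted p = 0.0208). The matrix enzyme Ak3 had 75.3 to 84.6 CPM in control and 73.4 to 82.9 CPM in METTL5-cKO hearts, and its log2 fold change of -0.04 (SE 0.0717) was within the spread of the libraries and turned to 0.11 when scaled by library size alone.

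Mb had 9276, 9236, 9396 and 9916 CPM in control and 6775, 6530, 6040 and 7857 CPM in METTL5-cKO hearts after TAC. The highest METTL5-cKO library, library 4, was below the lowest control library. The mean fell by 28.1%, from 9456 ± 314 to 6801 ± 767 CPM (SD, n = 4), or -0.48 on the log2 scale (SE 0.107, adjusted p = 0.0236, edgeR). The call was not stable against leaving out single libraries, although the log2 fold change stayed between -0.55 and -0.42. It was lost without METTL5-cKO library 1 (adjusted p = 0.0666), 2 (0.0805) or 3 (0.0519) and without control library 2 (0.0595), 3 (0.0516) or 4 (0.0814).

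In all, 4 of the 8 genes tested (Ckb, Slc6a8, Ak1 and Mb) had groups that did not overlap after TAC, beside 18.6% of all genes. For each of them the exact two-sided permutation test over the 70 ways to label 8 libraries gave p = 0.0286, the smallest it can give. Groups that do not overlap always give this value, so it adds nothing to their separation. Without METTL5-cKO library 4 the genes that passed numbered 6 (Ckm, Gamt and Ak1 in addition), and 23.4% of all genes passed (3899 of 16659) in place of 12.7%. Over the 8 fits that each left out 1 library, 1 to 6 of these genes passed, beside 479 to 3899 of all genes. That library also stood nearest to the controls in its fibroblast and cardiomyocyte markers. Its summed fibroblast markers were 969 CPM, against 2053 to 3037 in the other METTL5-cKO and 617 to 808 in the control libraries. Its cardiomyocyte markers summed to 39197 CPM, against 31032 to 32989 and 38666 to 44526.

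**Figure D1:**
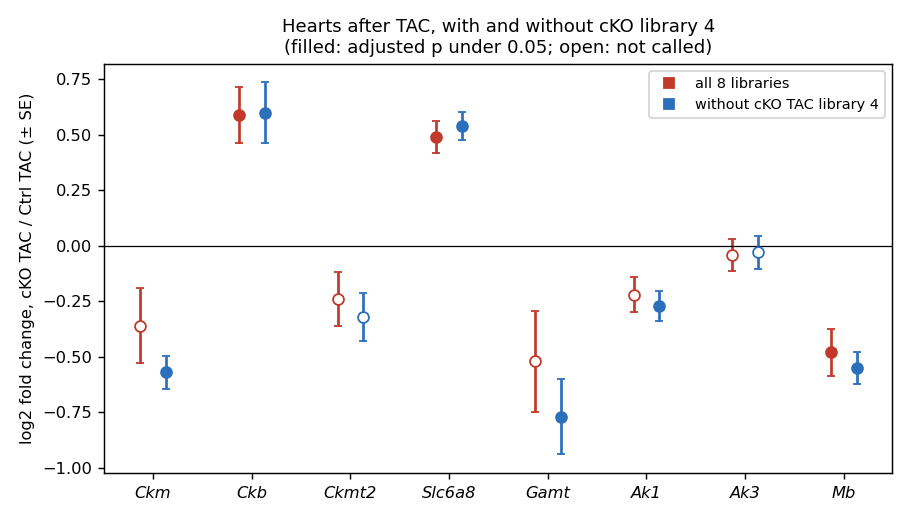
Log2 fold change (METTL5-cKO over control, y axis) of the 8 energy buffer genes tested after TAC (x axis), in red with all 8 libraries and in blue without METTL5-cKO library 4. Bars are the standard error, filled points passed the adjusted p and open points did not; Ckm, Gamt and Ak1 are open in red and filled in blue, and Ckmt2 and Ak3 are open in both.

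Marker RNA of several cell types differed between the genotypes after TAC. Of the fibroblast markers 7 of 9 were higher in METTL5-cKO hearts, of the macrophage markers 3 of 8 were higher (228 to 297 against 308 to 395 CPM summed), and of the endothelial markers 5 of 7 were lower (1255 to 1495 against 806 to 1140 CPM). Of the cardiomyocyte markers 2 of 10 were lower. Of the 4 skeletal muscle markers tested 1 was higher (810 to 1325 against 2871 to 3623 CPM summed), with Myh1, Myh2 and Myh4 at 0 in all 8 libraries. The skeletal muscle list includes Acta1, which the paper counts among the fetal genes raised further in METTL5-cKO hearts after TAC. Its sum is therefore no measure of skeletal muscle alone. None of the 6 smooth muscle markers (538 to 579 against 426 to 545 CPM) and none of the 6 red blood cell markers tested (1157 to 1552 against 977 to 1295 CPM) passed. In whole hearts, fewer cardiomyocytes and less RNA of a gene per cardiomyocyte cannot be told apart, and the part of these markers in the changes of Ckb, Slc6a8 and Mb was not tested.

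**Figure D2:**
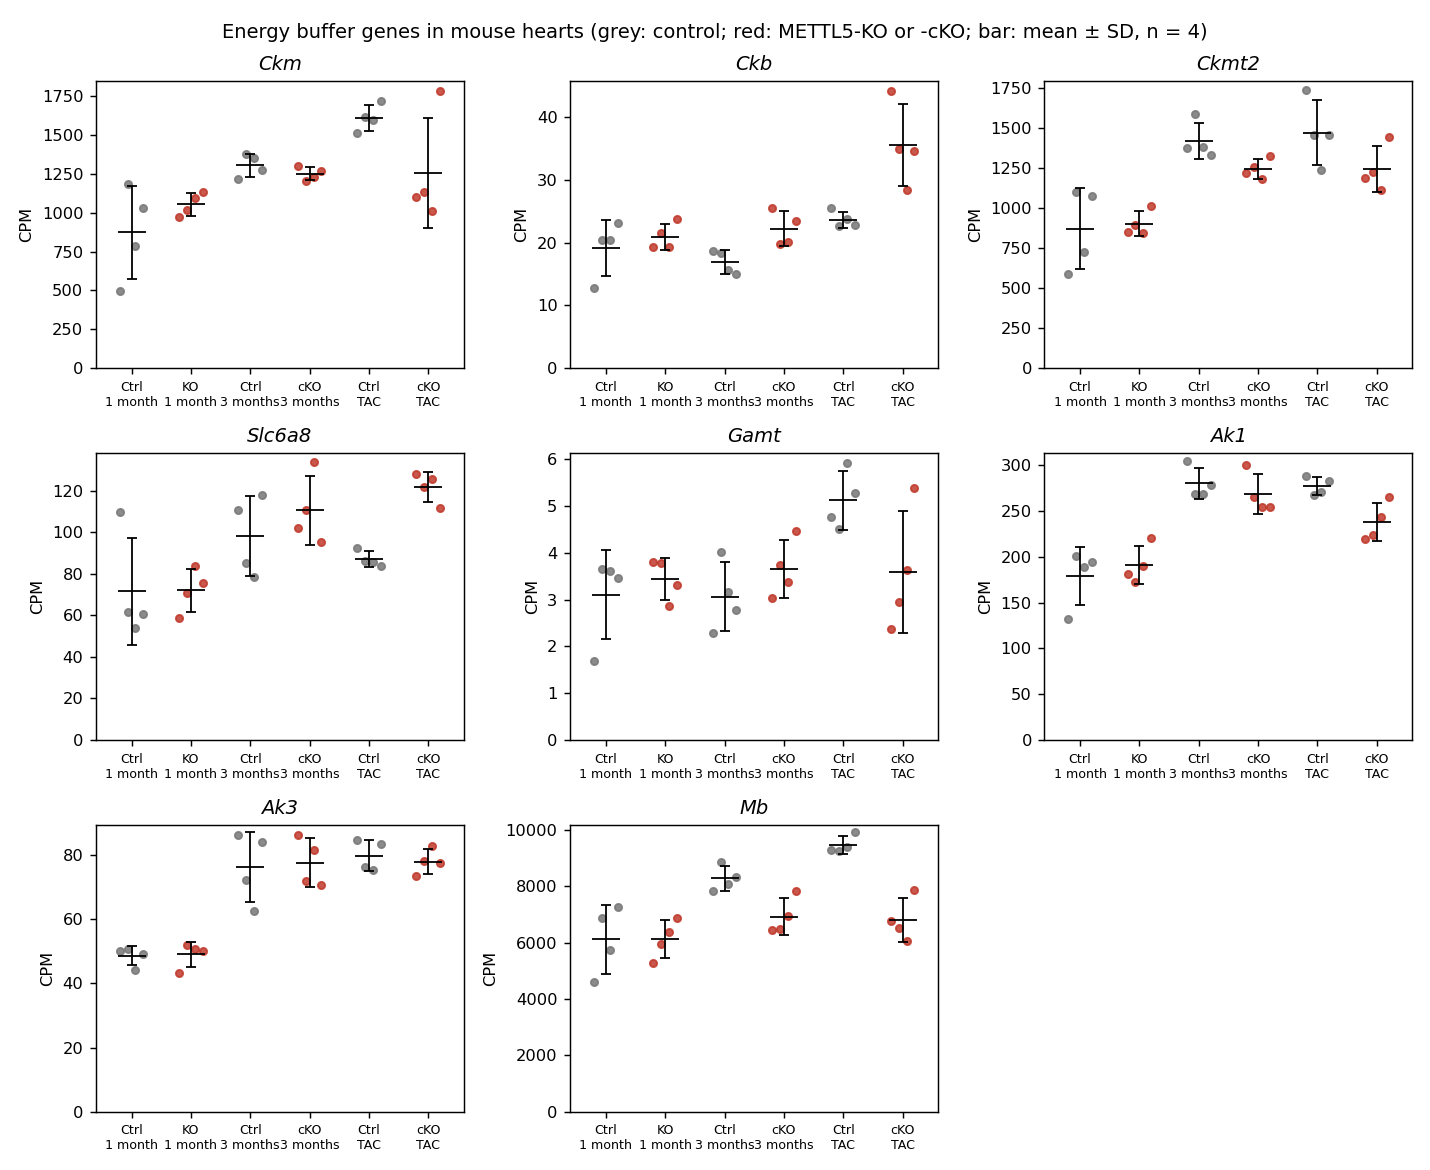
CPM (y axis, from 0) of the 8 energy buffer genes tested, 1 panel per gene, in the 6 groups of mouse hearts (x axis), with control libraries in grey and METTL5-KO or METTL5-cKO libraries in red. Points are libraries in the order 1 to 4 and bars show the mean and SD (n = 4); after TAC the red points of Ckb and Slc6a8 lie above the grey ones and those of Mb below, and 1 red point of Ckm lies at 1784 CPM, apart from the rest of its group.

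At 3 months, the comparison of METTL5-cKO and control hearts without surgery, none of the 8 genes tested passed (edgeR), beside 0.0732% of all genes. Ckb and Mb had an unadjusted p under 0.05 (2 of 8, edgeR), beside 1155 of all 16391 genes. DESeq2 called 0 of the energy buffer genes, beside 108 of all 30499 genes. Under that unadjusted limit were 3 energy buffer genes, beside 1149 of all genes. Ckb had 18.6, 18.4, 15.7 and 15.0 CPM in control and 25.5, 19.8, 20.1 and 23.5 CPM in METTL5-cKO hearts. The highest control library was below the lowest METTL5-cKO library, but the log2 fold change of 0.39 did not pass over all genes (SE 0.119, adjusted p = 0.46). Mb had 7817, 8874, 8080 and 8327 CPM in control and 6447, 6485, 6926 and 7829 CPM in METTL5-cKO hearts. METTL5-cKO library 4 and control library 1 overlapped by a narrow margin, and the log2 fold change was -0.26 (SE 0.0935, adjusted p = 0.593).

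Ckmt2 was the other gene whose groups did not overlap at 3 months, with 1374, 1586, 1383 and 1331 CPM in control and 1219, 1257, 1179 and 1322 CPM in METTL5-cKO hearts. Its log2 fold change was -0.19 (SE 0.0866, adjusted p = 0.72, edgeR). The 2 genes with groups apart stand beside 4.23% of all genes. Ckm (log2 fold change -0.06, SE 0.0783) and Ak1 (-0.06, SE 0.0872) overlapped, as did Ak3 (0.03, SE 0.120). Slc6a8 (0.17, SE 0.155) and Gamt (0.26, SE 0.196) overlapped too, and none of these 5 had an adjusted p under 0.924. Summed fibroblast markers were 457 to 605 CPM in control and 556 to 815 CPM in METTL5-cKO hearts at 3 months, and cardiomyocyte markers 44120 to 49228 and 39218 to 47108 CPM.

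The difference between the genotype effect after TAC and that at 3 months was tested by an interaction term over all 16 libraries, and none of the 8 genes passed, beside 0.00586% of all 17070 genes. The difference was 0.33 for Slc6a8 (SE 0.184, adjusted p = 0.507, edgeR), 0.21 for Ckb (SE 0.174, adjusted p = 0.691) and -0.20 for Mb (SE 0.121, adjusted p = 0.553). So the higher Ckb and Slc6a8 and the lower Mb after TAC were not shown to differ from the values at 3 months. Gamt had an unadjusted p under 0.05 (difference -0.76, SE 0.313, adjusted p = 0.353), the only 1 of the 8 by edgeR. DESeq2 called 0 of the energy buffer genes, beside 231 of all 32530 genes, and 1 energy buffer gene was under the unadjusted limit. Of all genes, 2011 of 17070 by edgeR and 2016 of 32530 by DESeq2 were under that limit. For Ckm the difference was -0.28 (SE 0.186, adjusted p = 0.595). Without METTL5-cKO TAC library 4 the interaction passed for Ckm (-0.51, adjusted p = 0.00851) and for Gamt (-1.02, adjusted p = 0.0491). In that fit 3.91% of all genes passed it, or 679 of 17353. It was the only 1 of the 16 fits leaving out a single library in which any energy buffer gene passed.

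At 1 month the 8 genes tested did not pass in hearts labelled METTL5-KO (0 of 8 by edgeR, 0 with an unadjusted p under 0.05, and 0 by DESeq2 at either limit), beside 0.00612% of all genes. Under the unadjusted limit were 747 of all 16329 genes by edgeR and 722 of all 30926 by DESeq2. After adjustment DESeq2 called 12 of all genes. The log2 fold changes of the 8 genes ran from 0.00 for Mb to 0.27 for Ckm (SE 0.239, adjusted p = 0.973, edgeR). Ckm had 494, 1183, 789 and 1029 CPM in control and 972, 1018, 1098 and 1131 CPM in METTL5-KO hearts. Control library 1 was the lowest library of all 8 for Ckm, Ckb, Ckmt2, Gamt, Ak1 and Mb. Slc6a8 ran the other way, with 110, 61.8, 54.2 and 60.7 CPM in control and 58.8, 70.6, 83.7 and 75.5 CPM in METTL5-KO hearts. Cardiomyocyte markers summed to 21627 CPM in control library 1 and to 24632 to 33006 CPM in the other controls, and macrophage markers to 313 and 144 to 217 CPM. Without that library the log2 fold change of Ckm was 0.08 and that of Slc6a8 0.30, and those of Ckb (-0.02), Ckmt2 (-0.10), Gamt (-0.06), Ak1 (-0.02) and Mb (-0.11) turned below 0. No gene had groups apart, beside 3.01% of all genes.

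**Figure D3:**
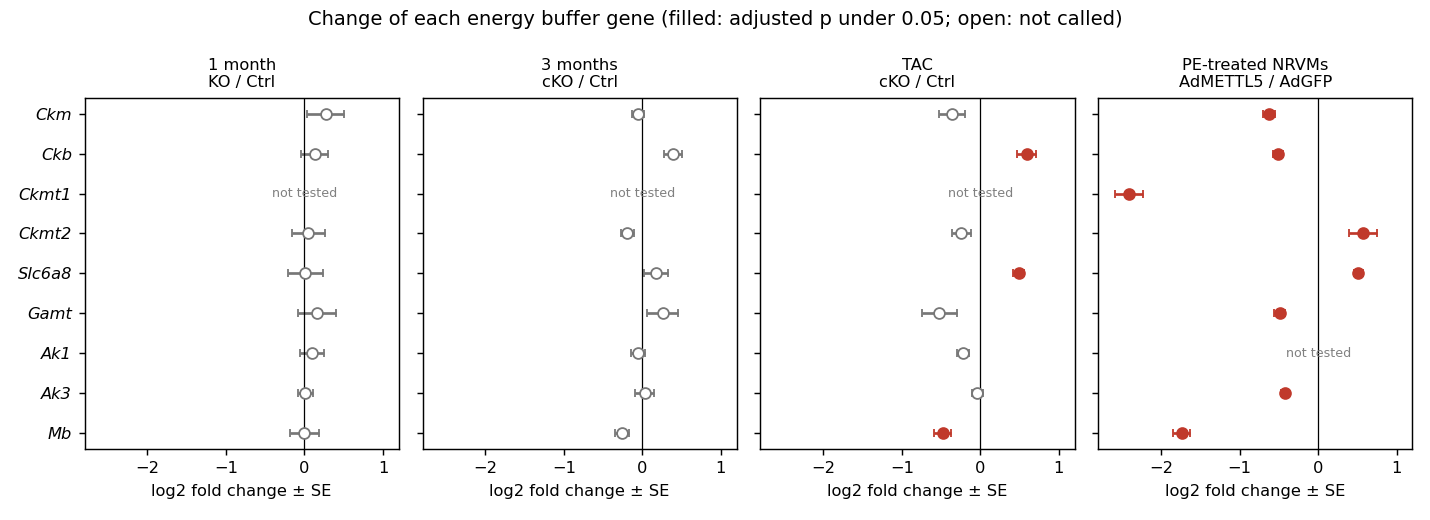
Log2 fold change with standard error (x axis) of each energy buffer gene (y axis) in the 4 comparisons, 1 panel each, with filled red points for an adjusted p under 0.05 and open grey points otherwise. No point is filled at 1 or 3 months, 3 are filled after TAC (Ckb and Slc6a8 right of 0, Mb left of 0), and all 8 tested are filled in NRVMs, from -2.41 for Ckmt1 to 0.57 for Ckmt2.

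The balance of the cytosolic subunits was read as the number of Ckb counts per 100 Ckm counts in each library, a ratio that scaling between libraries does not touch. After TAC it was 1.32 to 1.69 in control hearts (mean 1.47 ± 0.156, SD, n = 4). In METTL5-cKO hearts after TAC the 4 libraries had 4.00, 3.08, 2.81 and 1.94 (mean 2.96 ± 0.849). The lowest of these, library 4, still lay above all controls. At 3 months the ratio was 1.16 to 1.52 in control and 1.63 to 1.95 in METTL5-cKO hearts, again with no overlap. At 1 month it was 1.72 to 2.59 in control and 1.76 to 2.12 in METTL5-KO hearts, which overlapped. These ratios are a description and were not tested. In whole hearts they cannot tell a change within cardiomyocytes from a change in the mix of cells.

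**Figure D4:**
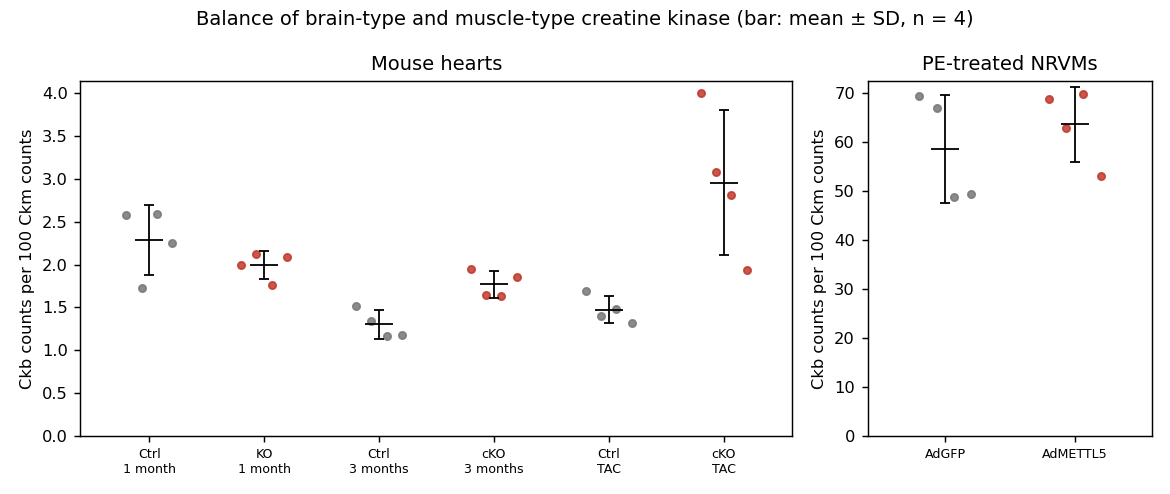
Ckb counts per 100 Ckm counts (y axis, from 0) in each library of the mouse heart groups (left) and of PE-treated NRVMs (right, on its own scale), with control in grey and changed groups in red. Bars show the mean and SD (n = 4); the red points lie above the grey ones at 3 months (1.63 to 1.95 against 1.16 to 1.52) and after TAC (1.94 to 4.00 against 1.32 to 1.69), and overlap them at 1 month and in NRVMs.

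In PE-treated NRVMs, the comparison that asks what more METTL5 does under a hypertrophic stimulus, all 8 genes tested passed, with 6 lower and 2 higher under AdMETTL5 (edgeR). Calls were widespread in this table, in which 52.8% of all genes tested passed, 27.1% higher and 25.7% lower. Their median log2 fold change was -0.50, and that of all genes was -0.00. Scaled by library size alone, 5872 of 8215 called genes were higher, against 4082 of 7949 with TMM, and the 8 energy buffer genes passed as 2 higher and 6 lower under both. With an absolute log2 fold change over 1 in addition, Ckmt1 and Mb passed (2 of 8), beside 5.85% of all genes. The groups of 7 genes did not overlap, beside 48.4% of all genes. For each the exact permutation test gave p = 0.0286, the smallest it can give. That value follows from the lack of overlap and adds nothing to it.

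Ckmt1, the ubiquitous mitochondrial creatine kinase, had 30.7, 33.0, 19.7 and 22.6 CPM with AdGFP and 5.53, 5.37, 4.53 and 4.52 CPM with AdMETTL5. All AdMETTL5 libraries lay far below the AdGFP range, in which libraries 1 and 2 were higher than libraries 3 and 4. The log2 fold change was -2.41 (SE 0.173, adjusted p = 4.1e-07, edgeR). Mb had 116, 117, 122 and 134 CPM with AdGFP and 34.4, 36.6, 28.5 and 46.2 CPM with AdMETTL5. The mean was 3.35-fold lower, with a log2 fold change of -1.74 (SE 0.112, adjusted p = 1.8e-07). In the NRVMs, unlike in the hearts, Ckmt1 was read in every library, with at least 69 counts.

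Both cytosolic subunits fell together in NRVMs. Ckm had 264, 255, 297 and 315 CPM with AdGFP and 173, 184, 167 and 205 CPM with AdMETTL5 (log2 fold change -0.63, SE 0.0782, adjusted p = 3.2e-05, edgeR). Ckb had 183, 171, 145 and 156 CPM with AdGFP and 119, 116, 117 and 109 CPM with AdMETTL5 (-0.51, SE 0.0673, adjusted p = 5.6e-05). The ratio of Ckb to Ckm therefore overlapped between the groups, at 48.8 to 69.3 Ckb counts per 100 Ckm counts with AdGFP and 53.1 to 69.7 with AdMETTL5. Mb fell further than Ckm, and Ckm counts per 100 Mb counts were 219 to 244 with AdGFP and 444 to 587 with AdMETTL5.

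Slc6a8 rose, from 86.1, 94.0, 91.2 and 92.8 CPM with AdGFP to 135, 131, 137 and 115 CPM with AdMETTL5. The lowest AdMETTL5 library, library 4, was above all AdGFP libraries, and the log2 fold change was 0.51 (SE 0.0590, adjusted p = 2.0e-05, edgeR). Gamt fell from 19.4 to 20.4 CPM across AdGFP libraries to 13.3 to 15.3 CPM across AdMETTL5 libraries (log2 fold change -0.49, adjusted p = 8.3e-05). Ak3 fell from 97.7 to 110 CPM to 75.0 to 81.3 CPM (-0.42, adjusted p = 3.6e-05). Ckmt2, the sarcomeric mitochondrial form, was low in these neonatal cells, with 37, 30, 51 and 49 counts with AdGFP and 44, 67, 51 and 60 with AdMETTL5. Its CPM overlapped (1.81 to 2.98 against 2.97 to 4.50), and its log2 fold change was 0.57 (SE 0.184, adjusted p = 0.0206). Its call was lost without AdGFP library 1 (adjusted p = 0.0521) or 2 (0.0588) or AdMETTL5 library 2 (0.0715).

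**Figure D5:**
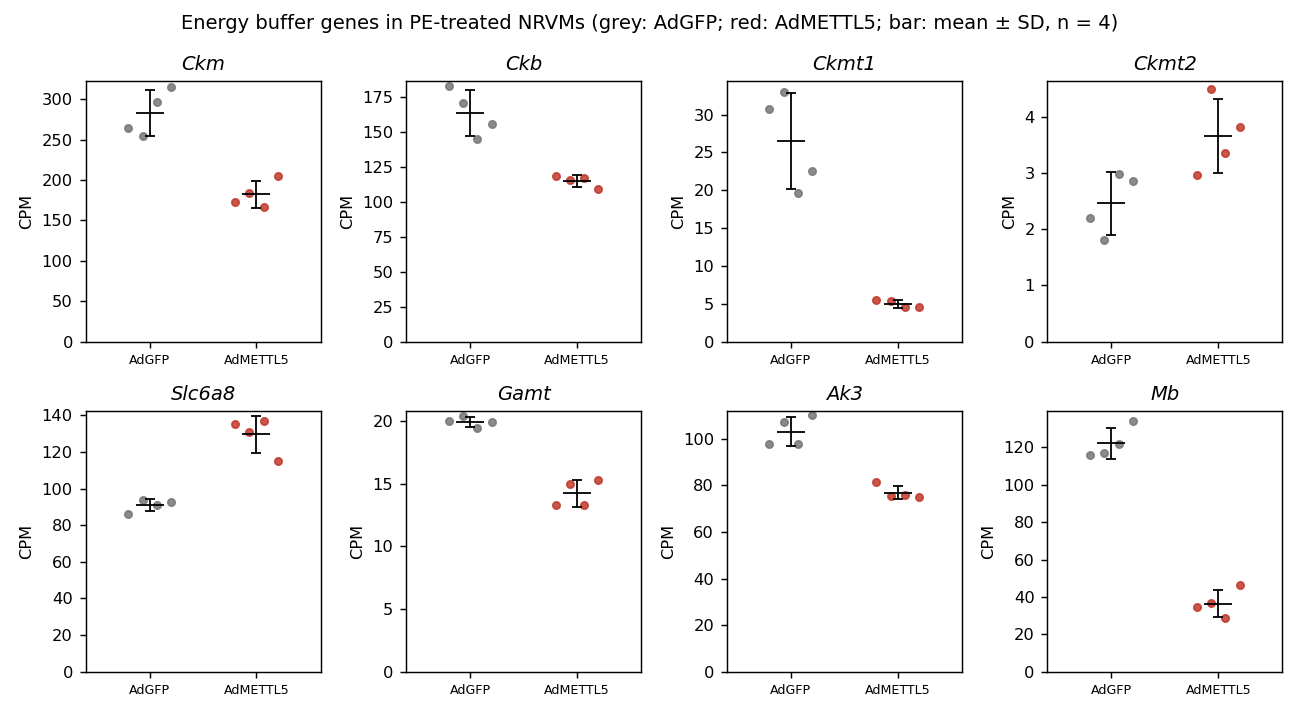
CPM (y axis, from 0) of the 8 energy buffer genes in PE-treated NRVMs, 1 panel per gene, with AdGFP libraries in grey and AdMETTL5 libraries in red. Points are libraries in the order 1 to 4 and bars show the mean and SD (n = 4); the groups lie apart in 7 panels, with red below grey in 6 of them and above in Slc6a8, and they overlap in Ckmt2.

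Markers of the contractile cell moved with the virus in NRVMs. All 9 cardiomyocyte markers tested were lower with AdMETTL5, and their sum was 32971 to 41030 CPM with AdGFP and 14860 to 16498 CPM with AdMETTL5, with a median log2 fold change of -1.02. Of the fibroblast markers 7 of 8 were lower (11558 to 12176 against 9133 to 10063 CPM). Of the skeletal muscle markers, a list that includes Acta1, 4 of the 6 tested were lower (1051 to 1369 against 630 to 763 CPM). Of the macrophage markers 3 of the 5 tested were lower (92.4 to 109 against 64.7 to 78.2 CPM, Cd163 at 0). Of the smooth muscle markers 2 were higher and 1 lower of 6 (3042 to 3787 against 3520 to 4004 CPM). Of the endothelial markers 1 of the 5 tested was higher (27.0 to 30.0 against 39.7 to 47.5 CPM). The 1 red blood cell marker tested did not pass, and the sum of that list was at most 1.51 CPM. The part of these markers, and of the lower depth of the AdMETTL5 libraries, in the changes of the energy buffer genes was not tested.

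The other genes of the pathway were read from a list of 35 that covers creatine synthesis and export, adenylate kinases, the purine nucleotide cycle, nucleoside diphosphate kinases, the ATP/ADP carriers and channels of the mitochondrial membranes, AMP-activated protein kinase and cytoglobin. After TAC 7 of the 29 tested passed, 5 higher and 2 lower (24.1%, edgeR), beside 12.7% of all genes, 6.57% higher and 6.10% lower, with a median log2 fold change of -0.02. Scaled by library size alone, 6 of the 7 that passed were higher. Prkab2, a regulatory subunit of the AMP-activated kinase, rose from 26.5 ± 1.17 to 66.6 ± 23.5 CPM (log2 fold change 1.33, adjusted p = 0.0137). Prkag2, the subunit that binds AMP, rose from 15.9 ± 1.01 to 26.2 ± 4.98 CPM (0.72, adjusted p = 0.0139). Adss1 (listed as Adssl1), the muscle enzyme of the purine nucleotide cycle, rose by 0.49 (adjusted p = 0.00744). Nme1, which passes phosphate from nucleoside triphosphates to nucleoside diphosphates, rose by 0.46 (adjusted p = 0.0242). Cygb, a relative of Mb, rose by 0.70 (adjusted p = 0.0329). The 2 lower genes were the mitochondrial channel Vdac3 (-0.27, adjusted p = 0.0426) and the ATP/ADP carrier Slc25a4 (-0.47, adjusted p = 0.0491), which were named after their values were seen. Between 3 and 10 passed when single libraries were left out. The number was 3 without METTL5-cKO library 2 or control library 2 or 4, and 10 without METTL5-cKO library 4. It was 4 without METTL5-cKO library 1 or 3 or control library 1. Of all genes, 479 of 16638 passed without control library 4, the fewest, and 3899 of 16659 without METTL5-cKO library 4, the most. At 1 and 3 months 0 of 29 and 0 of 30 passed, with 0 and 3 at an unadjusted p under 0.05. Of all genes, 747 of 16329 at 1 month and 1155 of 16391 at 3 months were under that limit.

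In NRVMs 20 of the 30 rows tested for the other pathway genes passed, 8 higher and 12 lower (66.7%, edgeR), beside 52.8% of all genes, 27.1% higher and 25.7% lower, with Ak6 on 2 rows and no row under the symbol Prkag1. Scaled by library size alone 22 passed, 13 of them higher. Prkaa1, a catalytic subunit of the AMP-activated kinase, rose from 61.7 ± 1.75 CPM with AdGFP to 100 ± 3.45 CPM with AdMETTL5 (log2 fold change 0.70, adjusted p = 1.7e-07), while Prkag2 fell from 79.9 ± 2.34 to 47.5 ± 2.71 CPM (-0.75, adjusted p = 3.0e-07). Cygb fell from 77.0 ± 2.59 to 51.7 ± 1.55 CPM (-0.58, adjusted p = 9.9e-07). Vdac3 fell by 0.49 (adjusted p = 3.9e-06) and Slc25a4 by 0.50 (adjusted p = 8.8e-06) on the log2 scale.

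The genes whose 4 log2 fold changes lay nearest to those of Mb were Rab3a, Fn3k and Phf24, among 10824 genes tested in all 4 comparisons. The root mean square difference from Mb was 0.177 for Rab3a, 0.180 for Fn3k and 0.190 for Phf24, over 4 comparisons. Rab3a had log2 fold changes of 0.20, 0.01, -0.39 and -1.65 at 1 month, 3 months, after TAC and in NRVMs. At 3 months Fn3k had -0.05 and Phf24 0.04, beside -0.26 for Mb. In NRVMs they had -1.55 and -1.58, beside -1.74 for Mb. Nearest genes can be found for any gene, and whether these lie nearer than chance would give was not tested. Ckmt1, which had the largest change in NRVMs, was not tested in the hearts, so no such genes were sought for it.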

How the data were processed

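RNA of mouse hearts and NRVMs was sequenced on BGI libraries by the authors, who aligned the reads to GRCm38 or Rnor_6.0 with HISAT2 2.0.4 and made estimated counts per gene with StringTie 2.1.4 (tools and versions from the submitters' processing notes). The deposited estimated counts are unscaled whole numbers, so rounding changed nothing. The plan had taken them for plain counts. Columns were assigned to groups by their names, at 1 month to single samples, and 0 columns of per-sample values went unused. Whether libraries came from separate animals or cultures is not stated in the labels, and if not, p-values measure only the spread between these libraries.

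Each table was fitted whole with glmQLFit and glmQLFTest of edgeR 4.0.16 (R 4.3.3) after TMM scaling and a filter on low counts (filterByExpr with its minimum count of 10 and minimum total of 15). A gene was called at a Benjamini-Hochberg adjusted p under 0.05. SE is the log2 fold change over the square root of F. For single genes the mean log2 CPM (prior count 2) was set against all 70 labelings in a two-sided exact permutation test. The interaction was fitted on the counts of both cardiomyocyte knockout tables together. Levels between genes were divided by the exon length of GENCODE M21. Scripts were tested on simulated data. The alternatives were DESeq2 1.42.0, its size factors, library size alone, other filters, blocking by replicate number, a minimum fold change, other gene lengths and leaving out single libraries.

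Named genes were the 9 energy buffer genes, the 5 called genes of the other pathway list with the smallest adjusted p in each comparison, and the 3 genes most like each of the 2 energy buffer genes with the largest called changes. The genes, the lists and the rules were chosen with earlier results of these data known. Other experiments of the study were not analysed here.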

Additional observations from a re-analysis of the deposited data

Results flagged for a closer look

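Single libraries stood apart from the other 3 of their group in 6 of 68 groups of values examined (Dixon's test at the 95% level, by which chance marks about 1 in 20). The Ckm level of METTL5-cKO library 4 after TAC was 1784 CPM, with 1010 to 1131 CPM in the other 3. Control library 1 at 1 month was apart in 3 genes: Slc6a8 at 110 CPM (others 54.2 to 61.8), Gamt at 1.69 CPM (others 3.46 to 3.66) and Ak1 at 132 CPM (others 189 to 201). Ckmt1 was at 0.513 CPM in control library 1 at 3 months, with the other 3 at 0. With the other 3 at 0 the test marks any value above 0, so this mark, counted among the 6, carries no information. Ak3 was at 81.3 CPM in AdMETTL5 library 1, with 75.0 to 75.8 CPM in the others.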

How the results depend on the processing

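The numbers of energy buffer genes called were 0 at 1 month and at 3 months under every alternative run, and 8 in NRVMs under every alternative that kept all libraries except the minimum fold change, which left 2 (0 after TAC). Leaving out single libraries gave 1 to 6 after TAC, 7 to 8 in NRVMs and 0 to 2 for the interaction, and for the other pathway genes 3 to 10 after TAC and 20 to 22 in NRVMs. Without a filter on low counts 4 of the other pathway genes were called after TAC. Over all genes DESeq2 called 12 at 1 month, 108 at 3 months and 231 for the interaction. Without a filter 1 was called at 3 months, 1052 after TAC and 0 for the interaction, and with library size alone 0 at 1 month and 0 for the interaction. Leaving out single libraries gave 0 to 2 at 1 month, 2 to 9 at 3 months, 479 to 3899 after TAC, 7089 to 7725 in NRVMs and 0 to 679 for the interaction. The cause of these shifts was not tested.

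Scaling by library size alone moved the median log2 fold change of all genes by 0.04 (1 month), 0.05 (3 months), 0.15 (TAC) and 0.14 (NRVMs). It turned Ak3 after TAC to 0.11, Slc6a8 at 1 month to -0.02, and the interaction to 0.04 for Ak3 and 0.03 for Ckmt2, none of which was called. Leaving out single libraries turned the sign of uncalled log2 fold changes only. At 1 month the ranges were -0.02 to 0.16 (Ak1), -0.03 to 0.07 (Ak3), -0.02 to 0.24 (Ckb), -0.10 to 0.18 (Ckmt2), -0.06 to 0.25 (Gamt), -0.11 to 0.10 (Mb) and -0.10 to 0.30 (Slc6a8). At 3 months Ak3 ran from -0.06 to 0.09, and in the interaction Ak3 ran from -0.11 to 0.04 and Ckmt2 from -0.13 to 0.04.

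With the replicate number as a block, 0 energy buffer genes and 0 other pathway genes were called at 1 month. Libraries with the same number correlated at 0.239, 0.12, -0.107 and 0.0782 in their deviations from the group means. Control library 1 correlated best with the METTL5-KO library of its own number, and the other controls with a library of another number. With 4 libraries per group these values cannot show whether libraries of a number share a litter or a batch. No paired analysis was possible because the columns of the other 3 tables carry no replicate number in both groups. Depth limits Ckmt1 in the mouse, with at most 13 counts in a library. Gamt in the mouse (43 to 114 counts) and Ckmt2 in NRVMs (30 to 67 counts) were also low. Their standard errors were the largest of the energy buffer genes tested. At 1 month Ckm, with far more counts, came close to Gamt (SE 0.239 and 0.247). The part of depth in these errors was not tested.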
